A study of Mus musculus with 6 samples.

Results

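Of the 46959 gene symbols measured in sorted mouse islet cells, 36 were macrophage and antigen-presenting cell genes, and all of them had a value in all 6 libraries. They were chosen by name, as transcripts of MHC class II presentation and of tissue macrophages, with earlier results of these data known. They comprise 8 genes of the class II pathway, 3 subunits of complement C1q, 5 genes of lipid handling and lysosomes, 13 surface receptors and adaptors, 4 intracellular haematopoietic proteins and 3 cytokines. The libraries came from 3 populations purified by flow cytometry from islets of adult mice, with 2 libraries each. Transdifferentiated cells were insulin-expressing cells that also carried the delta cell lineage label, beta cells carried the insulin reporter, and delta cells carried the lineage label. All animals in the 3 groups carried the same 3 alleles, which were the mIns1-H2b-mCherry reporter, Sst-cre and a floxed YFP allele. An Ins1 promoter thus drives the red nuclear reporter, and Cre under the somatostatin promoter leaves a lasting YFP label in any cell that has ever expressed it. Islets of 10 to 12 animals went into each pool, were kept overnight in RPMI at 5.5 mM glucose with 10% fetal bovine serum, and were dissociated with 0.25% trypsin before the sort, alike for all groups. The first library of each population came from a male pool and the second from a female pool, and the male pool is given first wherever a pair of values is printed. P-values measure the spread between these libraries only.

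MHC class II molecules are pairs of an alpha and a beta chain that present peptides from the endosome to CD4+ T cells. The invariant chain Cd74 guards the binding groove until cathepsin S trims it and H2-DM exchanges the last fragment for a peptide, and the coactivator Ciita drives these genes in professional antigen-presenting cells. Islets of healthy mice hold resident macrophages, which lie against beta cells and vessels, carry class II on their surface and express lysozyme, C1q and low levels of interleukin 1 beta and tumour necrosis factor. Endocrine cells of healthy islets are not professional antigen-presenting cells. In sorted bulk RNA, fewer cells of a type and less RNA per cell cannot be told apart, and this holds for every level below.

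The values are RPKM, reads per kilobase of exon per M reads. Library depth worked out from the values was 12.5 and 10.9 M reads in transdifferentiated cells, 21.6 and 20.5 M in beta cells and 17.0 and 15.7 M in delta cells. Beta and delta markers followed the labels: Ins2 was at 68229 and 73020 RPKM in transdifferentiated cells, 243303 and 169339 RPKM in beta cells and 1125 and 1369 RPKM in delta cells. Digestive enzyme transcripts of acinar cells differed between the male and the female pool. The 12 acinar markers summed to 2582 and 178 RPKM in transdifferentiated cells, 9744 and 367 RPKM in beta cells and 870 and 649 RPKM in delta cells.

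Most of the 36 genes were higher in beta cells than in the other 2 populations. The summed level of all 36 was 56.6 and 71.3 RPKM in transdifferentiated cells, 305 and 328 RPKM in beta cells and 85.4 and 98.6 RPKM in delta cells. C1qa, a subunit of the complement initiator C1q, made up 51.9% and 45.7% of that sum in transdifferentiated cells, 11.4% and 12.4% in beta cells and 69.4% and 78.0% in delta cells. Without C1qa, the summed level was 27.3 and 38.7 RPKM in transdifferentiated cells, 270.0 and 287 RPKM in beta cells and 26.1 and 21.7 RPKM in delta cells. These sums were 0.0148% and 0.0182% of all RPKM with C1qa included in transdifferentiated libraries, against 0.0518% and 0.0673% in beta libraries and 0.0232% and 0.0260% in delta libraries. No gene of the 36 was at 0 in a beta library, while 14 and 6 were at 0 in the transdifferentiated libraries and 12 and 13 in the delta libraries.

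**Figure D1:**
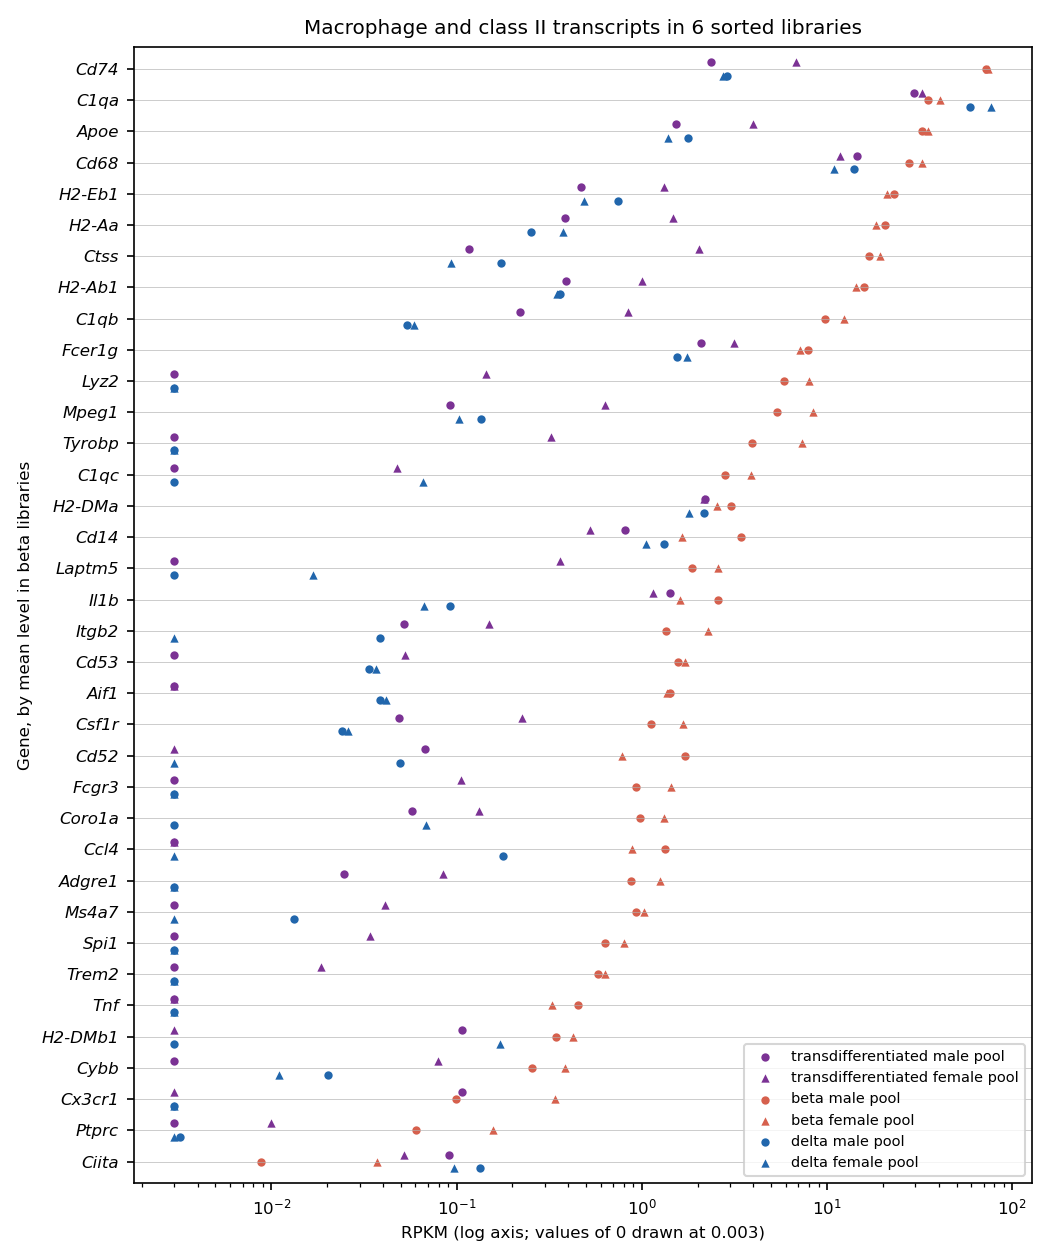
Level of each of the 36 genes in each library, in RPKM on a log axis, with genes ordered by their mean in beta cells; each point is 1 library, coloured by population and shaped by pool (circle male, triangle female), and values of 0 are drawn at 0.003. Beta cell points lie to the right of both other populations for most genes, and C1qa and Ciita depart from this.

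Gene by gene, both beta libraries were above both delta libraries for 34 of the 36 genes, against 15% of all symbols detected in any library. The 2 departures were C1qa and Ciita, whose beta libraries were both below both delta libraries. Both transdifferentiated libraries were below both beta libraries for 34 of the 36 genes, against 12.8% of all symbols. Here the departures were Ciita, higher in both transdifferentiated libraries, and the fractalkine receptor Cx3cr1, whose libraries overlapped. Both transdifferentiated libraries were above both delta libraries for 9 genes, against 21.9% of all symbols, and below them for 4 genes, against 24.5%.

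For tests, genes had to reach 1 RPKM in at least 2 libraries, and the fold changes given are on the log2(RPKM + 1) scale, where low genes change by less than on the RPKM scale. 22 of the 36 genes passed, of which 14 did so only through the beta libraries, so the calls among them in comparisons with beta cells partly follow from that filter. The 8 that passed without the beta libraries were Cd74, H2-DMa, Apoe, C1qa, Fcer1g, Cd14, Cd68 and Il1b. For every other gene tested, this limit holds wherever an adjusted p against beta cells is printed below. The other 14 genes never reached 1 RPKM in a second library and are given by their levels. In beta against delta cells, 19 genes were higher, where 11.7% of all genes tested were, and 1 was lower, where 46.3% of all genes tested were. In transdifferentiated against beta cells, 19 genes were lower, where 8.46% of all genes tested were, and 0 were higher, where 42.5% of all genes were; with no filter on low values, 29 genes were lower. In transdifferentiated against delta cells, 1 gene was higher and 1 was lower, where 5.53% and 7.2% of all genes tested were. Scaling the libraries by the median of ratios moved the median of all genes in transdifferentiated against beta cells to -0.02, against 0.32 as deposited, and in beta against delta cells to -0.00, against -0.36 as deposited. The median of the 22 genes was -1.76 in transdifferentiated against beta cells and 1.87 in beta against delta cells, over genes of which most were tested only because of their level in beta cells.

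**Figure D2:**
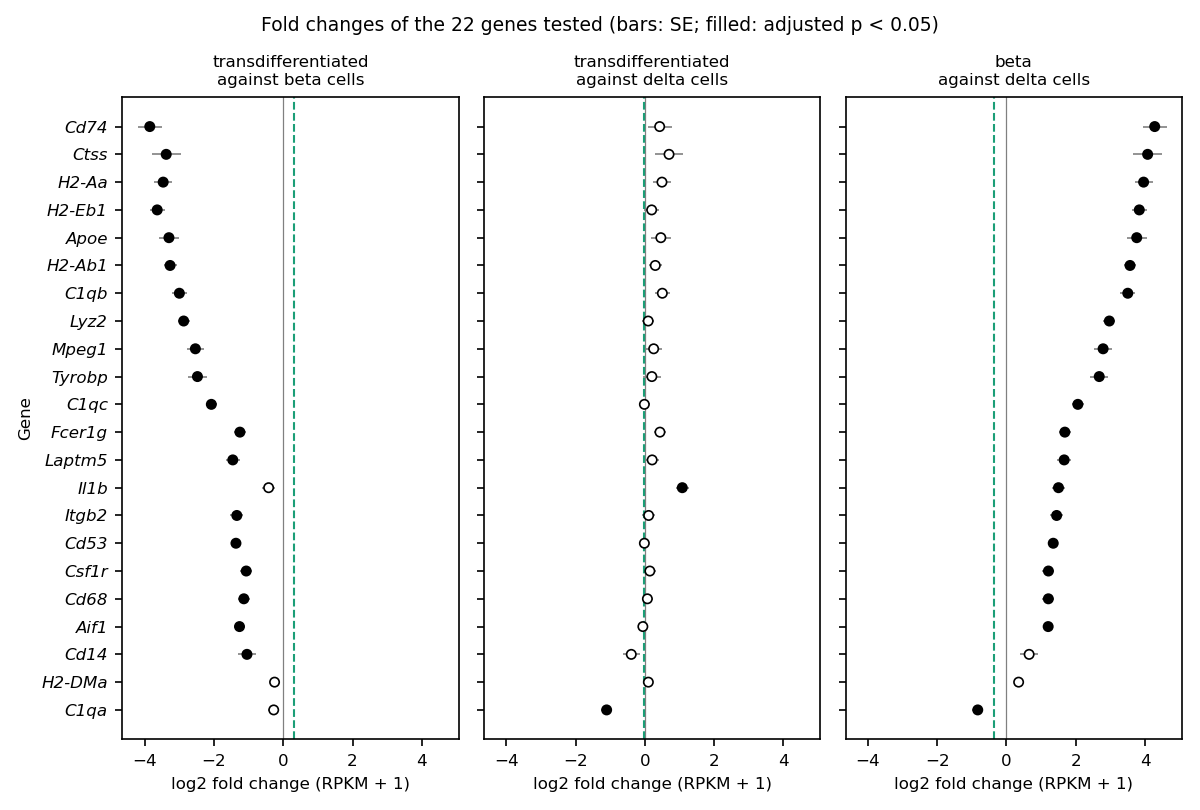
Fitted log2 fold change on the log2(RPKM + 1) scale for the 22 genes tested, with bars of 1 standard error, in the 3 comparisons; filled points passed an adjusted p of 0.05, open points did not, and the dashed line is the median of all genes tested. Most genes sit well to the left in transdifferentiated against beta cells and well to the right in beta against delta cells, while in transdifferentiated against delta cells C1qa and Il1b are the 2 filled points.

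The classical class II chains were low in transdifferentiated cells, high in beta cells and low in delta cells. Cd74, the invariant chain, was at 2.38 and 6.83 RPKM in transdifferentiated cells, 72.5 and 73.9 RPKM in beta cells and 2.88 and 2.76 RPKM in delta cells. H2-Aa, the alpha chain of I-A, was at 0.383 and 1.47 RPKM in transdifferentiated cells, 20.5 and 18.3 RPKM in beta cells and 0.252 and 0.374 RPKM in delta cells. Its partner chain H2-Ab1 was at 0.390 and 1.01 RPKM, 15.8 and 14.4 RPKM, and 0.360 and 0.351 RPKM in transdifferentiated, beta and delta cells. In all 3 genes the beta libraries stood apart from the other 4, and the female transdifferentiated library was above the male one. H2-Eb1, the beta chain of I-E, was at 0.472 and 1.32 RPKM in transdifferentiated cells, 22.9 and 21.0 RPKM in beta cells and 0.747 and 0.485 RPKM in delta cells. On the RPKM scale, mean levels in beta cells were 15.9 times those in transdifferentiated cells for Cd74 and 21.0, 21.6 and 24.6 times for H2-Aa, H2-Ab1 and H2-Eb1. They were 25.9 times those in delta cells for Cd74 and 62.0, 42.4 and 35.7 times for H2-Aa, H2-Ab1 and H2-Eb1.

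All 4 genes passed in both comparisons with beta cells, but H2-Aa, H2-Ab1 and H2-Eb1 were tested only because of their level in beta cells. In transdifferentiated against beta cells, Cd74 was at -3.85 on the log2 scale (SE 0.35, adjusted p = 0.000417) and H2-Eb1 at -3.64 (SE 0.22, adjusted p = 0.000167). H2-Aa and H2-Ab1 had log2 fold changes of -3.46 and -3.26, with adjusted p = 0.000247 and 0.000153. In beta against delta cells, Cd74 was at 4.28 (SE 0.35, adjusted p = 0.000141), and H2-Aa, H2-Ab1 and H2-Eb1 had values of 3.96, 3.57 and 3.83. In transdifferentiated against delta cells none of the 4 passed, with Cd74 at 0.43 (SE 0.35, adjusted p = 0.494) and H2-Aa at 0.49 (SE 0.26, adjusted p = 0.287).

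The H2-Aa, H2-Ab1 and H2-Eb1 genes lie together on chromosome 17 of GRCm38, at chr17:34282744-34287823 on the minus strand, chr17:34257689-34269419 on the plus strand and chr17:34305867-34316674 on the plus strand. Class II promoters are known for an X box, bound by the RFX complex, followed by a Y box, bound by NF-Y, to which Ciita is recruited. RefSeq windows (GRCm38.p6), each of 250 bases before to 50 after a start, could be matched to 24 of the 36 genes, and the 3 below are shown because they hold letters of both kinds in that order at similar spacing. Capitals mark the 8 letters CTNGNAAC and then the 7 letters TGATTGG, each window is read 5′ to 3′ along its gene, and the windows are chr17:34287774-34288073 (minus strand) for H2-Aa, chr17:34305617-34305916 (plus strand) for H2-Eb1 and chr17:34152941-34153240 (plus strand) for H2-DMb1.
H2-Aa: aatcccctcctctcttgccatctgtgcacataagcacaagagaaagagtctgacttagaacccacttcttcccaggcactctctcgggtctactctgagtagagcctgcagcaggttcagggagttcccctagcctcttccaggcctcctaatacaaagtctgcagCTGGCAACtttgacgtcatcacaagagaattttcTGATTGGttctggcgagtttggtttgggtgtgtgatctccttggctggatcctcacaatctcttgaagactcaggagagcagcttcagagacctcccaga
H2-Eb1: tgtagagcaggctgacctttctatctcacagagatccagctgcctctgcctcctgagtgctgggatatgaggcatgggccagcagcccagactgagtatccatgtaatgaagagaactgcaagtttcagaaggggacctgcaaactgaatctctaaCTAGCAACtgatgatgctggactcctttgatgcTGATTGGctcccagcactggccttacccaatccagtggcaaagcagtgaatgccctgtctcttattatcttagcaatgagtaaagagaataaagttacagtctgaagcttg
H2-DMb1: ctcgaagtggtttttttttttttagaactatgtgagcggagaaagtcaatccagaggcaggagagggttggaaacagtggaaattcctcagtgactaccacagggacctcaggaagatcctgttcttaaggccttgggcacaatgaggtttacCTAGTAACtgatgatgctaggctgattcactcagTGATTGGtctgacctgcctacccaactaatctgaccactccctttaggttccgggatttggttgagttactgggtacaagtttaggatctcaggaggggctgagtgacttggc
In H2-Aa the first letters were CTGGCAAC, which began 84 bases before the start, and the second began 50 bases before it. In H2-Eb1 the first letters were CTAGCAAC at 94 bases before the start and the second lay at 61 bases. In H2-DMb1 the first letters were CTAGTAAC at 97 bases before the start and the second lay at 63 bases. The gap between them was 26, 25 and 26 bases in H2-Aa, H2-Eb1 and H2-DMb1.

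These patterns were picked after the windows had been read, and a match is a run of letters, not a measured binding site. The pair with a gap of 10 to 40 bases on the strand of the gene occurred in 15 of 32851 windows, which is 0.0457%, and in 3 of the 24 matched genes. Counted on both strands, CTNGNAAC alone was in 13.2% of all windows and in 6 matched genes, and TGATTGG alone in 7.82% and in 4. The longer Y box letters CTGATTGG were in 4.1% of windows and in H2-Aa and H2-Eb1, and overlap TGATTGG. Its core ATTGG was in 37.4% of windows and in 12 matched genes, and CCNNGNNAC, the X box letters in general form, in 47.4% and in 11. GAGGAAGT, letters known for the myeloid factor PU.1 that Spi1 encodes, were in 3.2% of windows and in those of C1qc, Cd53 and Ctss. H2-DMb1 shares the paired letters with H2-Aa and H2-Eb1 and was much lower than either in beta cells.

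Of the remaining class II genes, Ctss differed by as much as the chains, and H2-DMb1, H2-DMa and Ciita did not. H2-DMb1, the beta chain of the peptide exchanger H2-DM, was at 0.107 and 0 RPKM in transdifferentiated cells, 0.343 and 0.428 RPKM in beta cells and 0 and 0.172 RPKM in delta cells, and reads could also come from its near-identical neighbour H2-DMb2. H2-DMa, the alpha chain, was at 2.19 and 2.18 RPKM in transdifferentiated cells, 3.02 and 2.56 RPKM in beta cells and 2.15 and 1.79 RPKM in delta cells. Both beta libraries of H2-DMa were highest, but no comparison passed, with log2 fold changes of -0.25 in transdifferentiated against beta cells (SE 0.13, adjusted p = 0.155) and 0.35 in beta against delta cells (SE 0.13, adjusted p = 0.0558). After scaling by the median of ratios these values were -0.55 (adjusted p = 0.0169) and 0.66 (adjusted p = 0.00744), and both passed. H2-DMa shares 360 exon bases with Brd2 on the other strand, a gene at 53.7 RPKM on average, and no source used here gives the strand rule of the counting.

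Ciita, the class II coactivator, ran the other way at levels close to nothing. It was at 0.0911 and 0.0524 RPKM in transdifferentiated cells, 0.00883 and 0.0372 RPKM in beta cells and 0.135 and 0.0971 RPKM in delta cells, and was too low to test. The beta libraries were thus lowest for Ciita, the libraries highest for the chains it is known to drive. Ciita shares 329 exon bases with Dexi on the other strand, which averaged 3.80 RPKM. Cathepsin S (Ctss), the protease that trims the invariant chain in macrophages and dendritic cells, was at 0.118 and 2.03 RPKM in transdifferentiated cells, 16.9 and 19.4 RPKM in beta cells and 0.174 and 0.0939 RPKM in delta cells. In reads, Ctss had 2 and 30 in transdifferentiated cells, 495 and 538 in beta cells and 4 and 2 in delta cells. It fell in transdifferentiated against beta cells with a value of -3.38 (log2 scale, SE 0.41, adjusted p = 0.0011), and its value in beta against delta cells was 4.07 (SE 0.41, adjusted p = 0.000336).

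The 3 subunits of C1q, which macrophages are known to secrete as 1 hexameric complex, parted in these libraries. C1qb was at 0.220 and 0.843 RPKM in transdifferentiated cells, 9.76 and 12.3 RPKM in beta cells and 0.0542 and 0.0586 RPKM in delta cells. C1qc was at 0 and 0.0475 RPKM in transdifferentiated cells, 2.81 and 3.87 RPKM in beta cells and 0 and 0.0661 RPKM in delta cells. Both stood only in the beta libraries at more than 1 RPKM. C1qa was at 29.4 and 32.6 RPKM in transdifferentiated cells, 34.9 and 40.5 RPKM in beta cells and 59.3 and 76.9 RPKM in delta cells, so delta cells were highest and the groups did not overlap. Mean C1qa was 31.0 ± 2.24 RPKM in transdifferentiated cells, 37.7 ± 3.97 RPKM in beta cells and 68.1 ± 12.5 RPKM in delta cells (SD, n = 2 each).

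C1qb and C1qc fell in transdifferentiated against beta cells, with log2 fold changes of -3.00 (SE 0.22, adjusted p = 0.000232) and -2.07 (SE 0.16, adjusted p = 0.000287), and were higher in beta than in delta cells by 3.50 and 2.06. C1qa did not pass in transdifferentiated against beta cells (log2 fold change -0.27, SE 0.16, adjusted p = 0.18), though it did after scaling (-0.67, adjusted p = 0.012). C1qa was lower in transdifferentiated than in delta cells, at -1.10 on the log2 scale (SE 0.16, adjusted p = 0.0067), and adjusted p was 0.0543 without the male transdifferentiated library and 0.0519 without the female delta library. C1qa was lower in beta than in delta cells too (-0.83, SE 0.16, adjusted p = 0.00423), but after scaling the value was -0.41 with adjusted p = 0.0613. The 3 genes lie in a row on chromosome 4, with C1qb at chr4:136880129-136886187, C1qc at chr4:136889804-136893065 and C1qa at chr4:136895917-136898803, all on the minus strand, and no annotated exon of another gene overlaps C1qa.

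Among lipid and lysosome genes, Apoe, a lipoprotein that macrophages secrete, was at 1.53 and 3.98 RPKM in transdifferentiated cells, 32.7 and 35.2 RPKM in beta cells and 1.79 and 1.39 RPKM in delta cells. Lyz2, lysozyme of myeloid cells, was at 0 and 0.145 RPKM in transdifferentiated cells, 5.82 and 7.99 RPKM in beta cells and 0 in both delta libraries, and its reads may include some of the near-identical Lyz1. Mpeg1, which encodes the pore-forming perforin 2 of macrophages, was at 0.0920 and 0.635 RPKM in transdifferentiated cells, 5.36 and 8.42 RPKM in beta cells and 0.136 and 0.103 RPKM in delta cells. These genes fell in transdifferentiated against beta cells, at -3.30, -2.87 and -2.53 on the log2 scale (adjusted p = 0.000406, 0.000162 and 0.000581), and were higher in beta than in delta cells by 3.76, 2.97 and 2.79. Laptm5, a lysosomal protein of haematopoietic cells, had 0 and 15 reads in transdifferentiated cells, 152 and 200 in beta cells and 0 and 1 in delta cells. It fell in transdifferentiated against beta cells, at -1.45 (SE 0.20, adjusted p = 0.00167) and was 1.67 higher in beta than in delta cells (SE 0.20, adjusted p = 0.000665). Cd68, a lysosomal membrane protein abundant in macrophages, kept a level in every library, with 14.6 and 11.8 RPKM in transdifferentiated cells, 27.6 and 32.6 RPKM in beta cells and 14.1 and 10.9 RPKM in delta cells. It fell by 1.14 in transdifferentiated against beta cells (SE 0.17, adjusted p = 0.00226), and the log2 fold change was 1.21 in beta against delta cells (SE 0.17, adjusted p = 0.00123).

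Of the 13 surface receptors and adaptors, most were near 0 outside beta cells. Tyrobp, the adaptor DAP12, was at 0 and 0.325 RPKM in transdifferentiated cells, 3.95 and 7.28 RPKM in beta cells and 0 in both delta libraries. Csf1r, the receptor that macrophages need to survive, was at 0.0490 and 0.225 RPKM in transdifferentiated cells, 1.12 and 1.66 RPKM in beta cells and 0.0241 and 0.0261 RPKM in delta cells, and shares 873 exon bases with Hmgxb3 on the other strand. Adgre1, which encodes the mouse macrophage antigen F4/80, had 1 and 3 reads in transdifferentiated cells, 61 and 83 in beta cells and 0 in both delta libraries. Tyrobp and Csf1r fell in transdifferentiated against beta cells at -2.47 and -1.07 (adjusted p = 0.000682 and 0.00302), and were higher in beta than in delta cells by 2.68 and 1.21 (adjusted p = 0.000299 and 0.00133). Against the limit of 3 reads in each delta library, beta cells had at least 18.0-fold higher Adgre1, and for the lipid sensor Trem2 and the Fc receptor Fcgr3, also at 0 in delta cells, at least 15.7-fold and 10.8-fold higher levels.

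Fcer1g and Cd14 kept a level in all populations. Fcer1g, the signalling chain of Fc receptors, was at 2.10 and 3.15 RPKM in transdifferentiated cells, 7.90 and 7.16 RPKM in beta cells and 1.55 and 1.75 RPKM in delta cells. In reads this was 23 and 30 in transdifferentiated cells, 149 and 128 in beta cells and 23 and 24 in delta cells. It fell by 1.25 in transdifferentiated against beta cells (SE 0.16, adjusted p = 0.00141) and differed by 1.69 in beta against delta cells (SE 0.16, adjusted p = 0.000288). Cd14, the lipopolysaccharide co-receptor, was at 0.812 and 0.525 RPKM in transdifferentiated cells, 3.45 and 1.65 RPKM in beta cells and 1.31 and 1.05 RPKM in delta cells, lowest in transdifferentiated cells. It fell in transdifferentiated against beta cells, at -1.05 (SE 0.25, adjusted p = 0.0135), with adjusted p = 0.0736 without the female transdifferentiated library and 0.053 with no filter on low values. Cd14 did not pass in beta against delta cells (0.66, SE 0.25, adjusted p = 0.0604) and did with the pool in the model (adjusted p = 0.0182). It passed too once the libraries were scaled (0.94, adjusted p = 0.0284) and when the female beta library was left out (1.03, adjusted p = 0.0083).

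The other 8 surface genes differed in level but not in pattern, Cx3cr1 apart. Itgb2, the shared beta chain of leukocyte integrins, had 2 and 5 reads in transdifferentiated cells, 89 and 143 in beta cells and 2 and 0 in delta cells. Cd53, a leukocyte tetraspanin, had 0 and 1 reads in transdifferentiated cells, 59 and 61 in beta cells and 1 in each delta library. Ms4a7, a marker of tissue macrophages, had 0 and 2 reads in transdifferentiated cells, 89 and 94 in beta cells and 1 and 0 in delta cells. Itgb2 and Cd53 fell in transdifferentiated against beta cells at -1.34 and -1.36 (adjusted p = 0.00195 and 0.000597) and were higher in beta than in delta cells by 1.45 and 1.35. Ptprc, the pan-leukocyte phosphatase CD45, was low even in beta cells, with 0 and 2 reads in transdifferentiated cells, 24 and 59 in beta cells and 1 and 0 in delta cells. Trem2 had 0 and 1 reads in transdifferentiated cells, 62 and 64 in beta cells and 0 in delta cells, and Fcgr3, whose reads other Fcgr genes could share, had 0 and 2, 35 and 51, and 0 in the same order. Cd52, a small leukocyte glycoprotein, had 1 and 0 reads in transdifferentiated cells, 44 and 19 in beta cells and 1 and 0 in delta cells. Cx3cr1 was at 0.107 and 0 RPKM in transdifferentiated cells, 0.0991 and 0.340 RPKM in beta cells and 0 in both delta libraries, so the male pools of transdifferentiated and beta cells were at about the same level.

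The 4 intracellular genes were all highest in beta cells, though low. Spi1, the transcription factor PU.1 that macrophages require, had 0 and 1 reads in transdifferentiated cells, 37 and 44 in beta cells and 0 in delta cells, which puts beta cells at least 10.1-fold above delta cells. Aif1, the actin-binding protein IBA1, had 0 reads in both transdifferentiated libraries, 47 and 43 in beta cells and 1 in each delta library, and fell in transdifferentiated against beta cells, at -1.26 (adjusted p = 0.000705). On the RPKM scale beta cells had at least 7.78-fold higher Aif1 than transdifferentiated cells. Cybb, the catalytic subunit of the phagocyte oxidase, had 0 and 5 reads in transdifferentiated cells, 32 and 46 in beta cells and 2 and 1 in delta cells. Coro1a, an actin regulator of leukocytes, had 2 and 4 reads in transdifferentiated cells, 59 and 75 in beta cells and 0 and 3 in delta cells.

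Of the 3 cytokines, Il1b set itself apart. Il1b, interleukin 1 beta, was at 1.42 and 1.15 RPKM in transdifferentiated cells, 2.58 and 1.62 RPKM in beta cells and 0.0927 and 0.0669 RPKM in delta cells. In reads it had 34 and 24 in transdifferentiated cells, 106 and 63 in beta cells and 3 and 2 in delta cells, so both transdifferentiated libraries were well above delta cells and below beta cells. It was the only gene of the 36 called higher in transdifferentiated than in delta cells, at 1.08 on the log2 scale (SE 0.18, adjusted p = 0.0121). That call was lost without any 1 of the 4 libraries concerned, with adjusted p of 0.0734 and 0.0544 without the male and female transdifferentiated libraries and 0.0549 and 0.0694 without the male and female delta libraries, and fold changes of 0.997 to 1.17. Il1b did not pass in transdifferentiated against beta cells (-0.42, SE 0.18, adjusted p = 0.0936) but did after scaling (-0.69, adjusted p = 0.0296) and without the female beta library (-0.65, adjusted p = 0.0334). It was higher in beta than in delta cells (SE 0.18, adjusted p = 0.000685). Tnf, tumour necrosis factor, had 0 reads in both transdifferentiated libraries, 16 and 11 in beta cells and 0 in both delta libraries. The chemokine Ccl4, which is close in sequence to Ccl3, had 0 reads in both transdifferentiated libraries, 19 and 12 in beta cells and 2 and 0 in delta cells. Against the limit of 3 reads in each transdifferentiated library, the beta mean was at least 2.32-fold higher for Tnf and at least 2.67-fold higher for Ccl4. The counting error of the few beta reads is not in these values.

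Set against each gene's own mean in beta cells, the levels in both other populations fell into a low bulk and a few high genes. The median over the 36 genes was 2.07% in the male and 8.12% in the female transdifferentiated library, and 2.02% and 1.90% in the delta libraries. Under 10% of the beta mean lay 27 and 23 genes in transdifferentiated cells and 29 in each delta library. More than 40% was reached by 6 and 5 genes in transdifferentiated cells and by 5 in each delta library. H2-DMa stood at 78.3% and 78.1% in transdifferentiated and 77.2% and 64.0% in delta cells, and Cd68 at 48.5% and 39.0% and at 46.7% and 36.3%. Il1b was high in 1 of these populations only, with 67.9% and 55.1% in transdifferentiated cells and 4.42% and 3.19% in delta cells. C1qa stood at 77.9% and 86.3% in transdifferentiated cells and at 157% and 204% in delta cells.

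**Figure D3:**
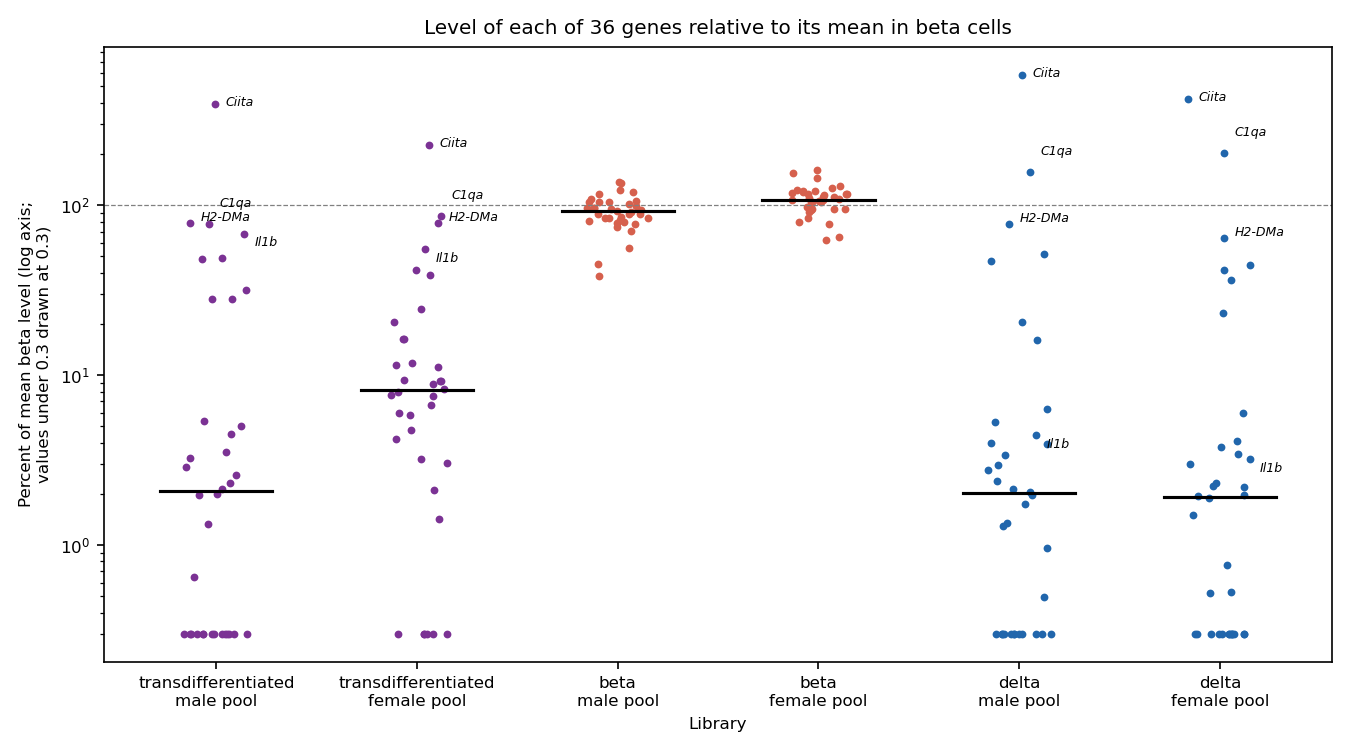
Level of each of the 36 genes as a percentage of its mean over both beta libraries, on a log axis, for the 6 libraries; each point is 1 gene, the bar is the median, and values under 0.3% are drawn there. The median is 8.12% in the female transdifferentiated library and 1.90% to 2.07% in the male transdifferentiated and both delta libraries, with Ciita, C1qa and H2-DMa at 64.0% or more in all 6 libraries except for Ciita in the male beta library.

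The 2 transdifferentiated libraries were not alike. 25 of the 36 genes were higher in the female one, 8 were lower and 3 were equal, where 46.1% of all genes tested were higher in it. The 36 include 14 genes too low to test, which the shares of all genes tested in this paragraph leave out, so the sets are unlike. Mpeg1 was 6.90 times, H2-Aa 3.83 times, Cd74 2.87 times and Apoe 2.60 times as high in the female as in the male library. As a percentage of the beta mean, Ctss was at 0.648% and 11.2%, Cd74 at 3.25% and 9.34%, H2-Aa at 1.97% and 7.57%, Apoe at 4.51% and 11.7%, and C1qb at 1.99% and 7.64%. H2-DMa, C1qa and Cd68, which stayed high in both populations, did not follow, at 0.996, 1.11 and 0.805 times the male level in the female library, and neither did Il1b, at 0.812 times. In beta cells 25 genes were also higher in the female library, where 64.8% of all genes tested were, but the median ratio was 1.17, and in delta cells 11 were higher, 17 lower and 8 equal. Each population has 1 library per pool, so the sex of the animals and the single library cannot be told apart.

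The comparison with delta cells depended on which transdifferentiated library was kept. Without the male transdifferentiated library, 4 genes were called higher than in delta cells, namely Ctss (1.42, adjusted p = 0.0169), Cd74 (1.04, adjusted p = 0.021), Apoe (0.95, adjusted p = 0.0422) and H2-Aa (0.91, adjusted p = 0.0439). Without the female one 0 were called higher, and Cd74 was at -0.18 and Ctss at -0.02. The lone library is taken there to vary like the other groups. The median log2 fold change of the 22 tested genes in transdifferentiated against delta cells was 0.20 with all libraries, where that of all genes was -0.03, and it was -0.0060 without the female library.

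Of 28 genes of the class II pathway beyond the 36, 19 were tested. In transdifferentiated against beta cells 6 were higher and 3 lower, where 42.5% and 8.46% of all genes tested were. In beta against delta cells 3 were higher and 10 lower, where 11.7% and 46.3% of all genes were, so the lower share was near that of all genes. In transdifferentiated against delta cells 2 were higher and 2 lower, where 5.53% and 7.2% were. Ifi30, a lysosomal thiol reductase that prepares antigens, was at 43.6 and 52.4 RPKM in transdifferentiated cells, 71.5 and 80.1 RPKM in beta cells and 28.4 and 31.2 RPKM in delta cells. It fell in transdifferentiated against beta cells, at -0.65 (adjusted p = 0.00718), and was higher in transdifferentiated than in delta cells by 0.66 (adjusted p = 0.0223) and in beta than in delta cells by 1.32 (adjusted p = 0.00033). Cd40, a co-stimulatory receptor, was at 1.17 and 1.27 RPKM in transdifferentiated cells, 1.85 and 1.58 RPKM in beta cells and 0.173 and 0.112 RPKM in delta cells, and was higher than in delta cells in both transdifferentiated (0.96, adjusted p = 0.00654) and beta cells (1.25, adjusted p = 0.000434). The 2 genes lower in transdifferentiated than in delta cells were Rfxap (-0.54, adjusted p = 0.0411) and the endosomal protease Lgmn (-0.81, adjusted p = 0.0177). Besides Ifi30, the genes lower in transdifferentiated than in beta cells were the cathepsins Ctsd (-0.37, adjusted p = 0.0456) and Ctsb (-0.79, adjusted p = 0.00185), and Ctsb was the third gene higher in beta than in delta cells (1.13, adjusted p = 0.000303). The general lysosomal proteases were at high levels everywhere, with Ctsb at 151 and 131 RPKM in transdifferentiated cells, 246 and 243 RPKM in beta cells and 113 and 108 RPKM in delta cells, and Ctsl at 346 and 278 RPKM, 262 and 206 RPKM, and 448 and 437 RPKM in the same order.

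Rfx5, a subunit of the complex that binds the X box, was singled out after its values had been seen. It was at 8.32 and 9.63 RPKM in transdifferentiated cells, 3.02 and 4.85 RPKM in beta cells and 9.93 and 9.73 RPKM in delta cells. The beta libraries were lowest, and Rfx5 was higher in transdifferentiated than in beta cells by 1.04 (adjusted p = 0.00447) and lower in beta than in delta cells, with a log2 fold change of -1.16 (adjusted p = 0.0022). Its partner Rfxank was at 3.41 and 3.72 RPKM in transdifferentiated cells, 3.10 and 3.58 RPKM in beta cells and 3.62 and 3.64 RPKM in delta cells, with no call in any comparison. Rfxap, also of that complex, was lowest in beta cells too, at 5.38 and 5.19 RPKM. It was at 6.69 and 8.18 RPKM in transdifferentiated and 11.9 and 10.6 RPKM in delta cells. Rfxap was lower in beta than in delta cells (-0.96, adjusted p = 0.00106). It was higher in transdifferentiated than in beta cells by 0.42 (adjusted p = 0.0336), where the median of all genes tested was 0.32. H2-Oa, H2-Eb2 and H2-Ea-ps were at 0 in all 6 libraries.

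A further list of 71 myeloid genes, also chosen with earlier results of these data known, was mostly highest in beta cells, at low levels. Both transdifferentiated libraries were below both beta libraries for 53 of the 71, against 12.8% of all symbols, and both beta libraries were above both delta libraries for 55, against 15%. Both transdifferentiated libraries were above both delta libraries for 17, near the 21.9% of all symbols. Only 18 of the 71 were tested, of which 1 was higher and 9 were lower in transdifferentiated than in beta cells, where 42.5% and 8.46% of all genes tested were. In beta against delta cells 9 were higher and 3 lower, where 11.7% and 46.3% were. Slc11a1, Gpnmb, Cebpa and Hcls1 passed the filter only through the beta libraries. Their calls, lower in transdifferentiated than in beta cells and higher in beta than in delta cells, partly follow from that filter. The 1 gene higher in transdifferentiated than in beta cells was Tlr2, a receptor of bacterial lipoproteins, at 19.6 and 18.8 RPKM in transdifferentiated cells, 10.2 and 12.1 RPKM in beta cells and 22.7 and 22.5 RPKM in delta cells. Sirpa, Lgals3 and Lyve1 were higher in transdifferentiated than in delta cells, by 0.65, 0.67 and 1.20 (adjusted p = 0.018, 0.0292 and 0.00214). Tlr2 (-0.97) and Unc93b1 (-0.37) were among the genes lower in beta than in delta cells, with Unc93b1 near the median of all genes tested, -0.36. Lyve1, a hyaluronan receptor of some macrophages and lymphatic vessels, was at 4.77 and 5.10 RPKM in transdifferentiated cells, 4.77 and 4.31 RPKM in beta cells and 1.45 and 1.71 RPKM in delta cells. As deposited, transdifferentiated cells were thus near the beta level for Lyve1. The log2 fold change was 0.10 (adjusted p = 0.512), where the median of all genes tested was 0.32. Lgals3, galectin 3, was at 1.07 and 1.23 RPKM in transdifferentiated cells, 13.5 and 14.2 RPKM in beta cells and 0.508 and 0.206 RPKM in delta cells. Itgam, the integrin chain CD11b, was at 0 in both transdifferentiated libraries, 0.153 and 0.230 RPKM in beta cells and 0 in both delta libraries, and was named after its values had been seen.

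Of 25 further cytokine genes 8 were tested. In transdifferentiated against beta cells 2 were higher and 2 lower, where 42.5% and 8.46% of all genes were, and in beta against delta cells 4 were higher and 4 lower, where 11.7% and 46.3% were. In transdifferentiated against delta cells 3 were higher and 0 lower, where 5.53% and 7.2% were. The 3 were Csf1, Cxcl16 and Cxcl10, with log2 fold changes of 0.81, 1.04 and 0.60 (adjusted p = 0.0156, 0.007 and 0.0407). Csf1, the ligand of the macrophage receptor Csf1r, was at 4.62 and 4.50 RPKM in transdifferentiated cells, 4.91 and 6.62 RPKM in beta cells and 2.19 and 2.16 RPKM in delta cells. Transdifferentiated cells were thus just below beta cells for the ligand while the receptor was near 0. The same 3 genes and Ccl5 (2.79) were the 4 higher in beta than in delta cells, and Il18 (-1.83), Il34 (-0.86), Vegfa (-0.52) and Pdgfb (-0.33) were the 4 lower. Pdgfb was near the median of all genes tested in that comparison, -0.36. Il18 (1.20) and Vegfa (0.90) were higher, and Ccl5 and Cxcl16 (-0.88) lower, in transdifferentiated than in beta cells. Ccl5, a chemokine of T cells and macrophages, was at 0.166 and 2.68 RPKM in transdifferentiated cells, 12.6 and 10.0 RPKM in beta cells and 0.675 and 0.864 RPKM in delta cells, and again the female transdifferentiated library was above the male one. It fell in transdifferentiated against beta cells, at -2.56 (SE 0.48, adjusted p = 0.00496). Ccl5 would not have passed the filter without the beta libraries, so its calls against beta cells partly follow from that filter. Il34 would not have passed it without the delta libraries, which limits its call in beta against delta cells in the same way.

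Markers of lymphocytes and mast cells were low and were not highest in beta cells as a list. The 7 T cell markers summed to 0.763 and 0.719 RPKM in transdifferentiated cells, 0.509 and 0.273 RPKM in beta cells and 1.66 and 1.88 RPKM in delta cells, almost all of it Lck, and Cd3d, Cd3e and Cd3g were at 0 in all libraries. The 6 B cell markers summed to 1.21 and 2.02 RPKM in transdifferentiated cells, 0.859 and 0.846 RPKM in beta cells and 0.222 and 0.184 RPKM in delta cells, most of it Cd79a, with Ms4a1 and Blk at 0. The 5 natural killer cell markers summed to at most 0.134 RPKM in any library, and of the 5 mast cell markers only Kit was above 0. The 6 erythroid markers summed to at most 0.229 RPKM. The sums for markers of other myeloid cells were highest in beta cells. The 7 dendritic cell markers summed to 0.0578 and 0.196 RPKM in transdifferentiated cells and 0.558 and 1.23 RPKM in beta cells. Their sum was 0.175 and 0.155 RPKM in delta cells. Most of the beta sum was Itgax, at 0.473 and 1.13 RPKM in beta cells. Both beta libraries were above both delta libraries for 1 of the 7 and below them for 2. Zbtb46 was at 0.0436 and 0.0402 RPKM in beta cells and 0.152 and 0.120 RPKM in delta cells. Flt3 and Clec9a were at 0 in both beta libraries, and Cd209a was at 0 in all libraries. The 8 neutrophil markers summed to 0.0694 and 0.0508 RPKM in transdifferentiated cells, 0.920 and 1.35 RPKM in beta cells and 0.129 and 0.0185 RPKM in delta cells, with Ly6g, Retnlg, Mpo and Elane at 0. Most of that beta sum was S100a9, at 0.711 and 0.937 RPKM in beta cells. Both beta libraries were above both delta libraries for 3 of the 8, against 15% of all symbols.

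The marker sums for cells of the islet's vessels and connective tissue did not follow the 36 genes either. The 8 endothelial markers summed to 5.31 and 6.66 RPKM in transdifferentiated cells, 8.11 and 4.07 RPKM in beta cells and 6.72 and 8.48 RPKM in delta cells, so beta cells overlapped both other populations. Esam was the largest part of the sum in each library. Pecam1, Cdh5, Kdr, Plvap, Tie1 and Emcn were highest in the male beta library, with Plvap at 1.77 RPKM there and 0.388 RPKM in the female beta library. Esam and Egfl7 were highest in the female delta library. The 8 mesenchymal markers summed to 0.200 and 0.273 RPKM in transdifferentiated cells, 0.339 and 0.368 RPKM in beta cells and 0.902 and 0.793 RPKM in delta cells. The 7 ductal markers summed to 239 and 182 RPKM in transdifferentiated cells, 312 and 242 RPKM in beta cells and 252 and 192 RPKM in delta cells, and the 5 Schwann cell markers to 6.33 and 5.67 RPKM, 2.27 and 2.09 RPKM, and 8.60 and 8.37 RPKM in the same order. Acinar transcripts moved with the pool and not with the 36 genes, since Ctrb1, a chymotrypsinogen, was at 915 and 34.2 RPKM in transdifferentiated cells, 3429 and 135 RPKM in beta cells and 271 and 157 RPKM in delta cells, while the beta sums of the 36 genes were 305 and 328 RPKM. The part of resident immune cells in the levels of the 36 genes was not tested.

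**Figure D4:**
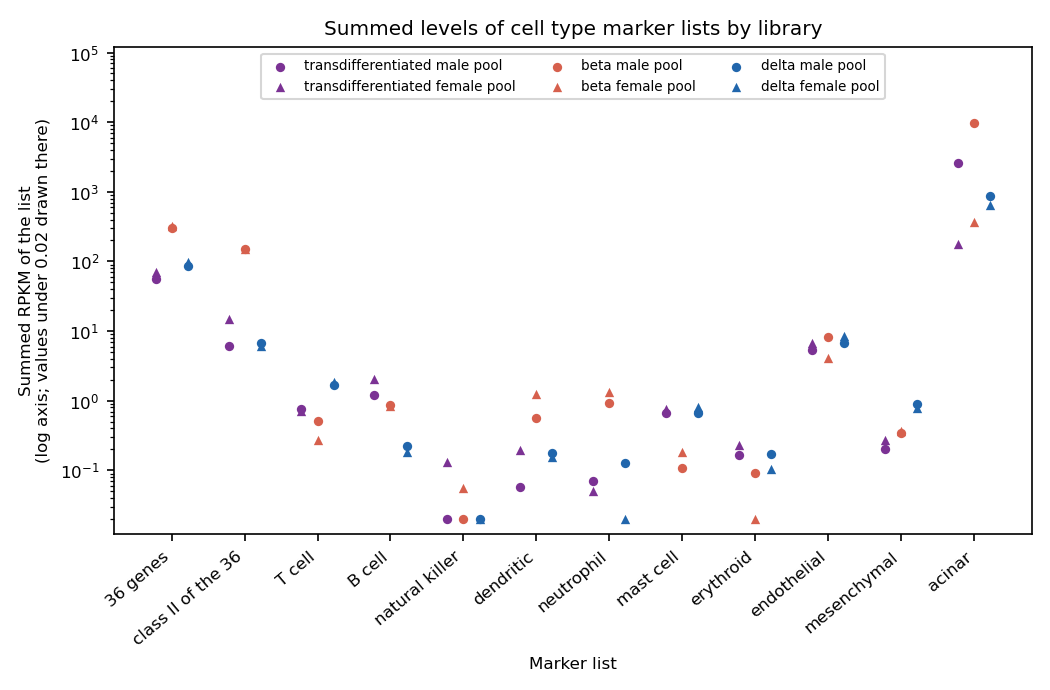
Summed RPKM of the 36 genes, of the class II genes among them and of marker lists of other cell types in each library, on a log axis; each point is 1 library, coloured by population and shaped by pool, and values under 0.02 RPKM are drawn there. The 36 genes are at 305 and 328 RPKM in beta cells against 56.6 to 98.6 RPKM elsewhere. The endothelial sums of beta cells overlap those of both other populations, and acinar markers differ between pools.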

How the data were processed

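RNA of 6 sorted samples was sequenced from TruSeq version 2 libraries, per the labels' protocols, and each population has 1 male pool (replicate 1) and 1 female pool (replicate 2). The authors deposited RPKM values made with STAR 2.5, featureCounts and edgeR 3.14.0 against GRCm38.p4, as named in the submitters' processing notes without settings. The 36 genes and all marker lists were chosen with earlier results of these data known. The filter kept 13022 genes that reached 1 RPKM in at least 2 of 6 libraries, after 27 symbols turned into dates were left out. log2(RPKM + 1) values were fitted for all 6 libraries with limma 3.58.1 in R 4.3.3 (trend, group only, 2-sided), with Benjamini-Hochberg adjustment over all genes tested and a threshold of 0.05, and the fit was tested on simulated data.

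Low RPKM values were multiples of 1 read, so depth was recovered with exon lengths of GENCODE M21 for 44093 symbols. Between 83.4% and 86.5% of values under 50 reads were whole within 0.01 read. Reads are printed for the 21 of the 36 genes that were whole within 0.05 read. Of these genes 16 had under 3 reads in both delta libraries and 17 in the male transdifferentiated library, so their ratios carry large counting error. Lower bounds of folds set each library at 0 to 3 reads and divide the beta mean by the higher of the resulting levels. They cover counting error in the libraries at 0 only, not that of the beta reads or the spread between beta libraries. Same-numbered libraries come from pools of one sex, the populations came from the same islets per the series text, and their deviations from group means correlated at 0.47, 0.36 and 0.24 (Pearson, over genes) for transdifferentiated with beta, transdifferentiated with delta and beta with delta cells. Genes of the 36 were named if called or not overlapping in any comparison; further lists by their most abundant tested genes and by counts of 5 or fewer, with 1 gene not reported here. Alternatives were a pseudocount of 0.1 RPKM, no filter, median-of-ratios scaling, the pool as a block, each library left out, and sums without Apoe; sums without C1qa and non-overlap after scaling were added after seeing the data.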

Additional observations from a re-analysis of the deposited data

Results flagged for a closer look

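For 6 genes the transdifferentiated library was above the delta library in the female pool and below it in the male pool. On the log2(RPKM + 1) scale, transdifferentiated minus delta was 1.06 in the female and -0.20 in the male pool for Cd74. It was 0.64 in the female and -0.25 in the male pool for H2-Eb1, and 1.47 and -0.07 for Ctss. Apoe had 1.06 in the female and -0.14 in the male pool, and Mpeg1 had 0.57 and -0.06. For Cd53 the values were 0.022 and -0.048, which rest on 0 or 1 read per library. With 1 library per population and pool, the difference between pools was not tested.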

How the results depend on the processing

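Of the values for single genes, 11 changed sign and 9 lost their call under an alternative, 13 gained one and 627 did neither. The sign changes were all in transdifferentiated against delta cells with a library left out. Over these fits Cd74 ranged from -0.18 to 1.04, H2-Eb1 from -0.13 to 0.52, Ctss from -0.020 to 1.42, Apoe from -0.026 to 0.95, Laptm5 from -0.012 to 0.44 and Mpeg1 from -0.036 to 0.55, each lowest without the female and highest without the male transdifferentiated library. C1qc ranged from -0.059 to 0.033, Cd68 from -0.10 to 0.24 and Cd53 from -0.050 to 0.024. Leaving out each library in turn gave 522 to 2055 genes called in transdifferentiated against delta cells, 4132 to 7086 in transdifferentiated against beta cells and 5031 to 7823 in beta against delta cells. The first count was 759 and 655 without the male and female transdifferentiated libraries and 717 and 522 without the male and female delta libraries, against 1657 with all, and the second was 4132 without the male transdifferentiated library, against 6642. Of the 36 genes it left 0 to 4 higher and 0 to 1 lower in transdifferentiated against delta cells, 18 to 20 lower in transdifferentiated against beta cells and 19 to 21 higher in beta against delta cells. The median fold change of those tested ranged from -0.0060 to 0.42, from -1.93 to -1.66 and from 1.82 to 2.03 in the same comparisons. A pseudocount of 0.1 RPKM gave medians of 0.64, -3.86 and 4.38. With no filter, 29 of the 36 were lower in transdifferentiated than in beta cells and 29 higher in beta than in delta cells. Median-of-ratios scaling gave medians of -1.97 in transdifferentiated against beta and 2.15 in beta against delta cells, left 0 genes lower in beta than in delta cells, and gave sums of 386.7 and 374.6 RPKM in beta cells and 75.3 RPKM in the male delta library. Sums without Apoe were 272 and 292 RPKM in beta cells. Sums without C1qa were 27.3 and 38.7 RPKM in transdifferentiated, 270.0 and 287 RPKM in beta and 26.1 and 21.7 RPKM in delta cells. The replicate block gave 1925, 7022 and 7890 genes called and changed 1 call among the 36, that of Cd14 in beta against delta cells (adjusted p = 0.0182). The cause of these changes was not tested. Depth limits the low genes: 12 to 14 of the 36 are at 0 in the male transdifferentiated and both delta libraries.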
